A study of Mus musculus with 6 samples.

Results

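The genes described here belong to the families that carry a cell through its cycle. They were taken from the heart array by symbol: the numbered cyclins A, B, D and E, the Cdc genes other than those starting with Cdc42, the Cdca, Cdk and Cenp genes, the Mcm helicase genes, the Kif kinesins, and the Bub, Aurk, Plk and E2f genes. The rule took 199 probes of 123 genes from the 25697 probes of 18138 genes in the table. Of these, 134 probes of 91 genes were detected on enough arrays to be tested, against 12970 probes of 9660 genes in all. A shared name is not a shared role, so the genes were described in 6 groups. Replication had 12 genes, control of the passage from G1 into S phase 15 and mitosis 47. The kinesins not placed in the mitosis group, called interphase motors here, were 20. There were 21 other kinases and regulators, and 8 further genes, most of which carry a family name but serve another function.

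A dividing cell licenses its replication origins by loading the Mcm helicase in G1, crosses into S phase when cyclin-dependent kinases release the E2F transcription factors, and later builds a spindle on which centromere proteins, checkpoint kinases and mitotic kinesins part the chromosomes. In rodents the heart muscle cells leave the cycle in the days after birth, while fibroblasts, endothelial cells and blood cells of the same organ go on dividing. Transcripts of the replication and mitosis genes are therefore usually found in dividing cells, whereas most transport kinesins are made whether or not a cell divides.

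The hearts came from male mice of the FVB strain, FVB/N in the study's methods, at postnatal day 6, with 3 hSRY-ON and 3 hSRY-OFF hearts, each on its own MouseRef-8 BeadChip array. The hSRY-ON mice carried the Signalox-hSRY transgene, a single copy at the H11 locus on chromosome 11 in which a stretch with DsRed2 had been cut out by Cre, so that the ubiquitous CAG promoter drove FLAG-tagged human SRY together with EGFP. The recombination had been made in the early embryo by Ddx4-Cre from the mother's oocyte, and the hSRY-ON mice used for the arrays were chosen without the Ddx4-Cre transgene. The hSRY-OFF mice are named in the study's methods as carrying the unrecombined transgene, while elsewhere littermate controls without it, with or without Ddx4-Cre, are described, and the labels do not say which were used. The level of human SRY was not analysed here, so the labels were not checked against it. RNA came from dissected heart tissue, a mix of cell types in which fewer cells of a type and less RNA per cell cannot be told apart. The labels number the hearts as replicates of each group, and the p-values measure the spread between these 6 hearts.

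Replication and mitosis genes were on the whole lower in hSRY-ON hearts, most interphase kinesins were higher or near the level of the controls while Kif1b fell, and the regulators of G1 were mixed. All values are log2 intensities after background correction and quantile normalization, a gene is represented by its brightest tested probe, and a gene is said to have risen or fallen only when its limma p-value, adjusted by the Benjamini-Hochberg method over all 12970 tested probes, was under 0.05. By this rule 13 of the 91 genes fell in hSRY-ON hearts and 8 rose. Among all 9660 tested genes 13.9% fell and 14.9% rose, 28.8% in all, so that the 13 genes that fell are near the share found on the whole array. The signs were less even than the calls, since 66 of the 91 members had a negative change and 25 a positive one, with a median of -0.29 against 0.00 over all tested genes, whose quartiles were -0.31 and 0.30. All 3 hSRY-ON hearts lay below all 3 hSRY-OFF hearts for 28 members and above them for 13, where 22.0% and 24.9% of all tested genes did so. At an unadjusted p under 0.05, 25 members were lower and 12 higher, beside 19.9% and 21.5% of all tested genes. Counted by probe, 22 of the 134 tested probes of the members fell and 8 rose, against 13.7% and 13.8% of all tested probes and 27.5% in either direction.

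The number of calls depended on the scaling and on single hearts, while the signs of the replication and mitosis groups did not. Under the main setting 38.1% of the called members were higher. With each array scaled to its median, 5 members fell and 11 rose, which put 68.8% of the calls on the higher side. With factors computed in the manner of TCC, 7 fell and 10 rose, or 58.8% higher, and without normalization between arrays 8 fell and 3 rose, or 27.3% higher. The median of all genes was itself -0.11 without normalization, 0.10 with median scaling and 0.07 with the TCC factors. These 3 settings shift all genes of an array alike, so relative to that median the replication genes are at -0.48 and the mitosis genes at -0.41 in each by construction. In absolute terms the replication median was -0.59, -0.38 and -0.41 and the mitosis median -0.52, -0.31 and -0.34 without normalization, with median scaling and with the TCC factors. Leaving out 1 heart changed the number of members that fell to 3 without hSRY-OFF heart 1, 6 without hSRY-OFF heart 2, 8 without hSRY-OFF heart 3, 5 without hSRY-ON heart 1, 4 without hSRY-ON heart 2 and 23 without hSRY-ON heart 3. The number that rose became 5 without hSRY-OFF heart 1, hSRY-OFF heart 2, hSRY-ON heart 1 or hSRY-ON heart 3, 6 without hSRY-OFF heart 3 and 4 without hSRY-ON heart 2. Calls over the whole array moved too. In either direction 3567 probes were called under the main setting, 3586 with median scaling, 3461 with the TCC factors and 1897 without normalization. With 1 heart left out the number ran from 2206, without hSRY-OFF heart 1, to 3669, without hSRY-OFF heart 3.

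The levels of some cell type markers moved with the group as well, and the members of several lists did not move together. Of the 4 tested cardiomyocyte markers, 3 fell (Myh6, Ryr2 and Tnni3), and their summed background-corrected level ran from 45197 to 55618 in the controls and from 34672 to 41879 in the hSRY-ON hearts. Of 4 endothelial markers 2 fell, Cdh5 and Tek, with sums of 7317 to 8228 and 5990 to 7032. Pecam1 changed by 0.01 with overlap and Tie1 by -0.24 without passing. None of the 4 fibroblast markers passed the test by its brightest probe, with sums of 19544 to 22621 and 18092 to 20524. The brightest probe of Dcn changed by -0.30 without overlap, and its second probe fell by 0.90 (adjusted p = 0.0108). Of 5 macrophage markers 3 rose, Cd14, Cd68 and Lyz2, with sums of 1945 to 2931 and 4824 to 5232, and of 5 smooth muscle markers 2 rose, Acta2 and Tagln, with sums of 26837 to 32659 and 39755 to 43708 that are mostly Acta2. Myh11 and Rgs5 of that list had negative changes, -0.42 and -0.57, that did not pass. In the macrophage list Emr1 changed by -0.21 and Csf1r by 0.40, both with overlap and without passing, while a second Csf1r probe rose by 1.30. Of 5 erythroid markers Hbb-b1 fell, by 1.29, while the sums of 48990 to 61239 and 50773 to 55437 are mostly Hba-a1, whose probe was near the highest intensity of every array. None of 3 neutrophil markers passed, with sums of 462 to 689 and 704 to 2879. Of the thymus and lymphocyte markers Cd3g, a dim probe, fell from 5.82, 5.54 and 5.83 to 4.68, 4.73 and 5.43. It was detected on 3 hSRY-OFF arrays and 1 hSRY-ON array, so that it was tested only through the group where it is high. Cd3e, Cd4, Cd8a, Rag1 and Dntt were detected on no array. Of 3 tested brown fat markers Ucp1 and Adipoq rose, while Cidea had a change of -1.05 that did not pass. The groups overlapped for Ucp1, at 4.64, 5.03 and 8.88 against 10.81, 8.80 and 9.94, and it was detected on 1 hSRY-OFF array. Of the hepatocyte markers Ttr was detected on all 3 hSRY-ON arrays and on no hSRY-OFF array, so that it was tested only through the group where it is high, and Alb was detected on no array. The part of these cell types in the changes of the cycle genes was not tested.

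**Figure D1:**
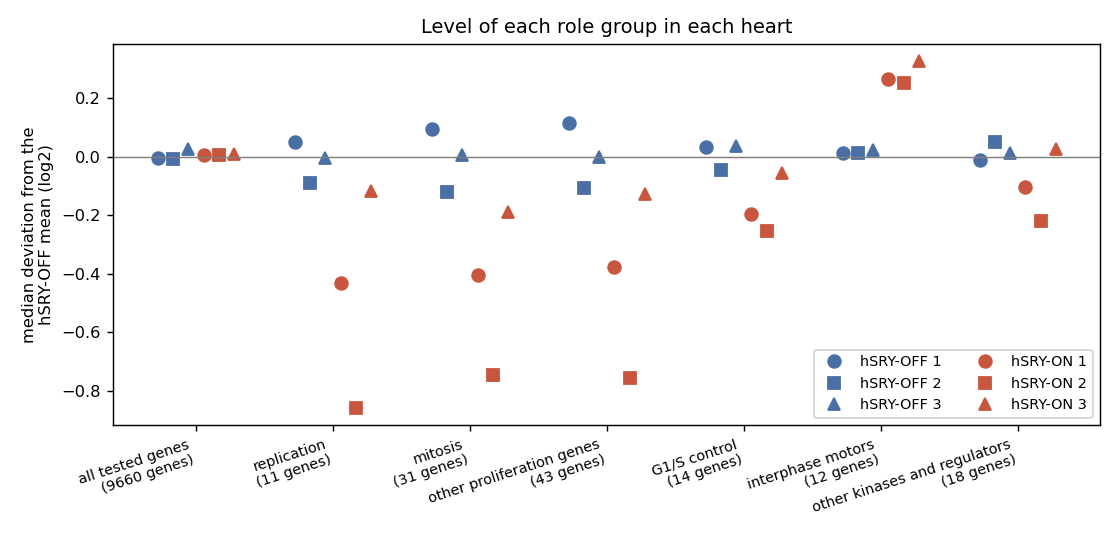
Median deviation from the mean of the hSRY-OFF hearts (log2, vertical axis) over the tested genes of each group, with 1 symbol for each of the 6 hearts. The replication, mitosis and other proliferation genes are lower in all 3 hSRY-ON hearts, lowest in hSRY-ON heart 2 and nearest to the controls in hSRY-ON heart 3, whereas the interphase motors are higher in all 3 and the median over all genes is near 0 in every heart.

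All 11 tested genes of the replication machinery were lower on average in hSRY-ON hearts, with changes from -0.80 to -0.13 and a median of -0.50, and 2 of them passed the test. These 2 were 18.2% of the group, where 13.9% of all tested genes fell. Mcm10, which helps to start the replicative helicase, was at 8.21, 8.38 and 8.13 in hSRY-OFF hearts 1, 2 and 3 and at 7.47, 6.97 and 7.88 in the hSRY-ON hearts. It fell by 0.80 on the log2 scale (SE 0.22, adjusted p = 0.034), a 1.74-fold difference, with no overlap between the groups. Its second tested probe, with overlap, gave -0.28 (adjusted p = 0.285), and the call of the first held in 9 of 17 alternatives. Cdc6, which loads the Mcm complex onto origins, was a dim probe at 5.82, 6.01 and 5.67 against 5.26, 4.78 and 5.50. It fell by 0.66 (SE 0.20, adjusted p = 0.044), and kept its call in 3 of the 15 alternative settings in which it was tested. Because it was detected on only 1 of the 3 hSRY-ON arrays, it was tested only through the hSRY-OFF arrays, where it is high. Its place among the 2 genes that fell rests on that filter.

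The 6 subunits of the Mcm2-7 helicase ring were tested and none passed. Mcm6 was closest, at 10.09, 10.18 and 10.06 in the hSRY-OFF hearts and 9.33, 8.90 and 9.94 in the hSRY-ON hearts, a change of -0.73 (SE 0.24, adjusted p = 0.063). Mcm5 was very even among the controls, at 10.56, 10.54 and 10.56, and spread out in the hSRY-ON hearts, at 10.01, 9.69 and 10.45 (change -0.50, SE 0.19, adjusted p = 0.09). For both genes the groups did not overlap, and hSRY-ON heart 3 lay just under the lowest control. The values of Mcm2 were 9.46, 9.19 and 9.57 against 8.81, 8.58 and 9.29, those of Mcm3 8.76, 8.33 and 8.64 against 8.42, 7.58 and 8.56, those of Mcm4 11.19, 11.07 and 11.22 against 10.88, 10.58 and 11.30, and those of Mcm7 7.76, 7.45 and 7.59 against 7.30, 7.26 and 7.84. In these 4 subunits hSRY-ON heart 2 was again the lowest of the 6 hearts and hSRY-ON heart 3 reached the controls, with changes of -0.51, -0.39, -0.24 and -0.13. The kinase gene Cdc7, whose product fires licensed origins, changed by -0.53 (SE 0.18, adjusted p = 0.065) with no overlap, and Cdc45l, now Cdc45, the partner of the ring in the moving helicase, by -0.39 (SE 0.17, adjusted p = 0.14).

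The start-site windows of the members were searched for 3 motifs, on both strands, because the replication and mitosis genes are known to be switched by factors that read them. These were the E2F site, as GGCGGGAA, TTTGGCGC or TTTCGCGC, the CCAAT box, as CCAAT, and the CHR, as TTTGAA, the element through which the DREAM and MuvB complexes act on mitosis genes. Each window ran from 250 bases before to 50 after a RefSeq start site (build GRCm38.p6), and 105 of the 123 members had one. An E2F form was found in 6 of 11 replication genes, or 54.5%, in 8 of 43 mitosis genes, or 18.6%, in 3 of 10 G1/S genes, or 30.0%, and in none of 17 interphase motor genes, against 3.39% of all 27025 genes with a window. The CHR was found in 27.3% of replication genes, 46.5% of mitosis genes, 20.0% of G1/S genes and 17.6% of interphase motor genes, against 20.2% of all genes, and CCAAT in 81.8%, 67.4%, 60.0% and 41.2%, against 41.1%. Some genes have several windows, and of all 32851 windows taken singly 2.96% held an E2F form, 17.9% a CHR and 37.4% a CCAAT. A match here is a run of letters and not a shown binding site, and a window without one says nothing about the factor.

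The 160 bases before the start of Mcm5 (chr8:75109349-75109508, + strand) and Mcm6 (chr1:128359706-128359865, - strand) are shown because they hold E2F forms in a group that was low as a whole, with E2F and CCAAT matches in capitals. The E2F forms on the opposite strands overlap each other in both genes, so that 1 capital run there is 2 matches.
Mcm5: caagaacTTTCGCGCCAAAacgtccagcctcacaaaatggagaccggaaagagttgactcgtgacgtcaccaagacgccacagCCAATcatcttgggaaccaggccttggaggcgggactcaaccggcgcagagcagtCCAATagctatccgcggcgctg
Mcm6: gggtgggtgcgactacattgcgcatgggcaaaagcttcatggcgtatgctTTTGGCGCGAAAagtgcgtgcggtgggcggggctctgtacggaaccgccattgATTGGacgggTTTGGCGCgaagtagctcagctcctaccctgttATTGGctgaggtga

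**Figure D2:**
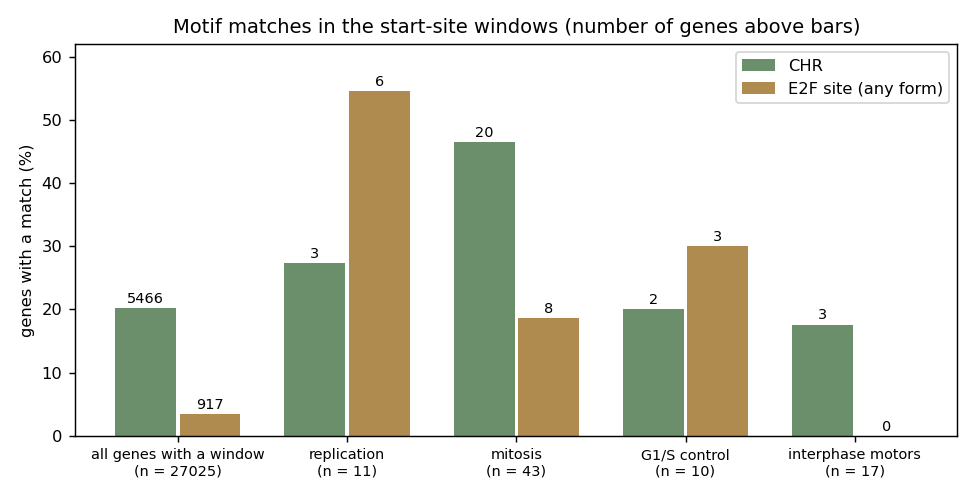
Percent of genes (vertical axis) with a CHR (TTTGAA) or any of the E2F forms in their start-site windows, with the number of genes above each bar. The E2F forms reach 54.5% in replication genes and the CHR 46.5% in mitosis genes, against 3.39% and 20.2% of all genes.

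Of the 31 tested mitosis genes 28 had a negative change, 5 fell and 1 rose, with a median of -0.40, and in 14 all hSRY-ON hearts lay below all hSRY-OFF hearts. The 5 that fell were 16.1%, near the 13.9% of all tested genes. Those 14 were 45.2%, against 22.0% of all tested genes. The mitotic kinesins were the most uniform subgroup, with 3 of 6 that fell, 5 of 6 without overlap and a median of -0.66. Kif11, the plus-end motor that pushes spindle poles apart, was at 8.34, 8.23 and 8.63 in hSRY-OFF hearts and at 7.76, 7.36 and 8.07 in hSRY-ON hearts, and fell by 0.66 (SE 0.20, adjusted p = 0.045). Kif22, a chromokinesin that pushes chromosome arms away from the poles, was at 10.28, 9.90 and 10.26 against 9.56, 9.13 and 9.79, and fell by 0.65 (SE 0.20, adjusted p = 0.0437). Kif23, which bundles the midzone for cytokinesis, was at 9.48, 9.45 and 9.50 against 8.80, 8.26 and 9.19, and fell by 0.73 (SE 0.22, adjusted p = 0.0455). In all 3 motors each hSRY-ON heart was below every control, and hSRY-ON heart 2 was the lowest. The same holds for the chromokinesin Kif4, with a change of -0.66 but an adjusted p of 0.0867, since its hSRY-ON hearts ranged from 7.62 to 8.62. The calls of Kif11, Kif22 and Kif23 sat just under the threshold. They were lost with median scaling and with the TCC factors, and over all alternatives their adjusted p-values ran from 0.0244 to 0.107, from 0.0157 to 0.132 and from 0.0149 to 0.113.

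The 160 bases before the starts of Kif11 (chr19:37376222-37376381, + strand) and Kif22 (chr7:127042421-127042580, - strand) are shown because both genes fell and both have a CCAAT box followed by a CHR close to the start. Capitals mark these 2 motifs, both of which read here on the opposite strand, as ATTGG and TTCAAA.
Kif11: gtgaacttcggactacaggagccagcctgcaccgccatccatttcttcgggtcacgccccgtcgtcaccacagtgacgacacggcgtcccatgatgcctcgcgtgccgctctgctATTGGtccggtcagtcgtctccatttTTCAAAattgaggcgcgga
Kif22: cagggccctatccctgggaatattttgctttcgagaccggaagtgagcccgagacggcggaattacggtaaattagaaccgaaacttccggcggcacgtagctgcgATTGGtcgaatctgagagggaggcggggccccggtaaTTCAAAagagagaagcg

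Among centromere and chromosome proteins 2 of 13 fell and 12 had a negative change, with a median of -0.45. The 2 that fell were 15.4%, near the 13.9% of all tested genes. Cenpa, the histone H3 variant that marks the centromere, was the brightest of the called mitosis probes, at 13.01, 12.90 and 12.90 in hSRY-OFF hearts and 12.16, 11.94 and 12.57 in hSRY-ON hearts. It fell by 0.72 (SE 0.17, adjusted p = 0.0192) and kept its call in 15 of 17 alternatives. Cenpi, a subunit of the inner kinetochore, was at 7.79, 7.67 and 7.83 against 7.01, 6.98 and 7.58, and fell by 0.57 (SE 0.18, adjusted p = 0.0488), a call kept in 7 of 17 alternatives. Cenpt, which links the centromere to the outer kinetochore, was the exception in this subgroup, at 9.93, 9.82 and 9.94 against 10.13, 10.09 and 10.37, a positive change of 0.30 that did not pass (adjusted p = 0.117). Cdca3, a trigger of mitotic entry, did not pass by its brightest probe (-0.52, adjusted p = 0.172), while its other tested probe did (-0.66, adjusted p = 0.0288).

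The 8 tested cyclins, kinases, Cdc25 phosphatases and checkpoint genes of mitosis had negative changes, with a median of -0.34, and none passed the test. The checkpoint gene Bub3 was nearly unchanged, at -0.01. Plk1, the Polo-like kinase of mitotic entry and exit, was at 9.30, 8.98 and 9.04 against 8.76, 8.20 and 8.79 (change -0.52, SE 0.19, adjusted p = 0.0794), and the groups did not overlap. Aurka, the kinase of the spindle poles, was at 9.59, 9.41 and 9.51 against 9.34, 8.82 and 9.31 (change -0.35, SE 0.17, adjusted p = 0.159), again without overlap. Cdc2a, the array's name for Cdk1, the kinase at the centre of mitosis, was at 11.07, 10.89 and 10.96 against 10.57, 10.31 and 11.06 (change -0.32, SE 0.20, adjusted p = 0.257). Its partner Ccnb1 changed by -0.39 (SE 0.24, adjusted p = 0.259) and the checkpoint kinase gene Bub1b by -0.33 (SE 0.17, adjusted p = 0.196), both with overlap between the groups.

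The anaphase-promoting complex, which ends mitosis by marking cyclin B and securin for destruction, did not move as 1 unit. Its activator Cdc20 was measured by 4 probes, all negative and with all hSRY-ON hearts below the controls, as in 21.6% of all tested probes, while 23.6% had them all above. The brightest, at 10.96, 10.64 and 10.68 against 10.18, 9.76 and 10.48, missed the threshold (change -0.62, SE 0.20, adjusted p = 0.0536), and 2 of the others passed, at -0.75 (adjusted p = 0.0261) and -0.68 (adjusted p = 0.0167). The core subunit gene Cdc23 went the other way, from 9.30, 9.30 and 9.55 to 9.87, 10.33 and 10.30, and rose by 0.78 (SE 0.16, adjusted p = 0.0108), the only mitosis gene that rose. Of the other core subunits Cdc27 changed by -0.40 (adjusted p = 0.103) and Cdc16 by 0.01 (adjusted p = 0.969).

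**Figure D3:**
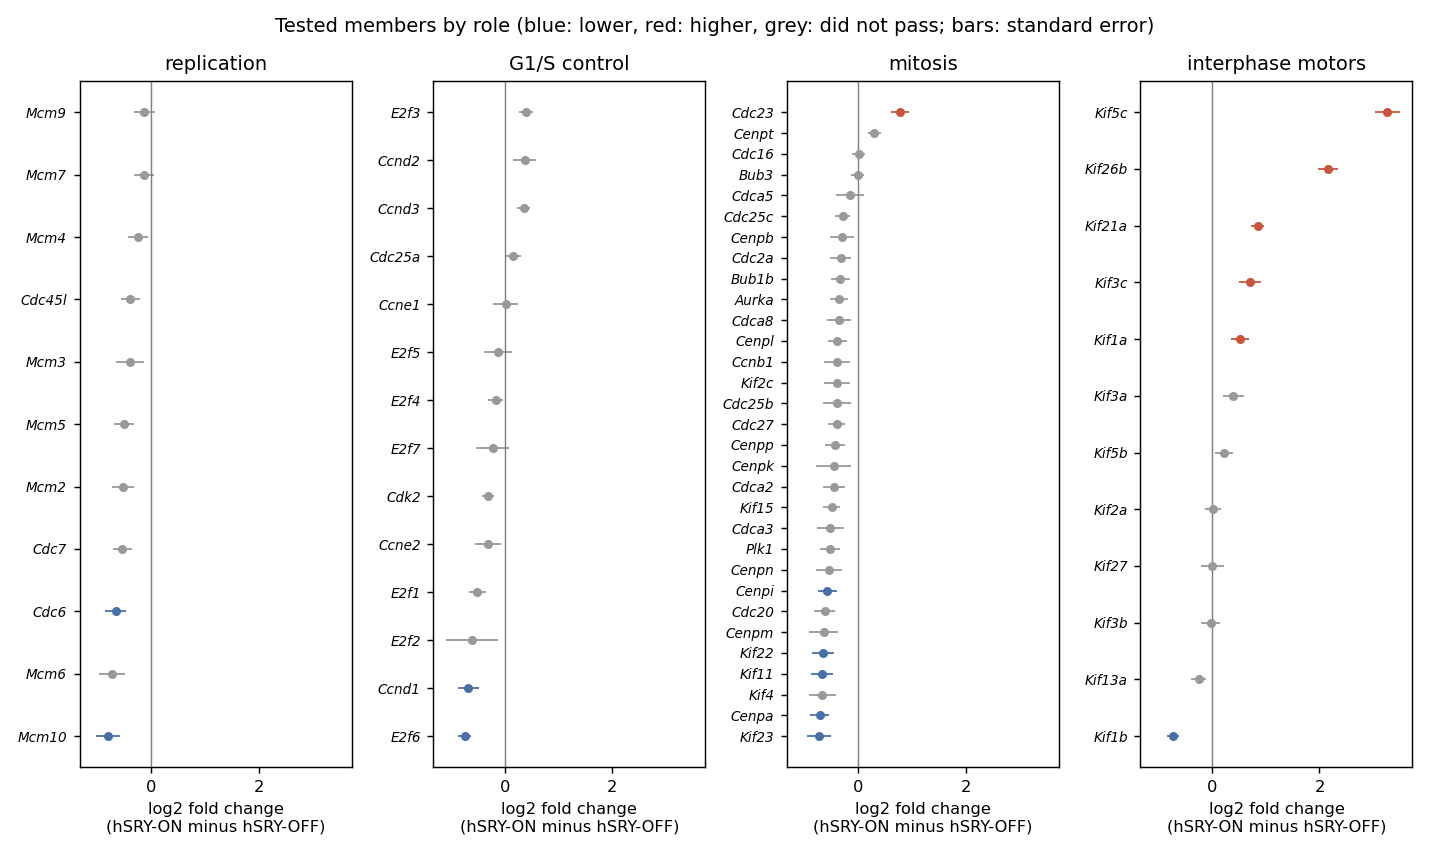
Log2 fold change, hSRY-ON minus hSRY-OFF, with its standard error (horizontal axis), for every tested gene of 4 groups. Blue points fell, red points rose and grey points did not pass. All 11 replication genes and 28 of 31 mitosis genes lie left of 0, and 5 of 12 interphase motors are red, where 14.9% of all tested genes rose.

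The hSRY-ON hearts differed among themselves in these genes, and most of the genes shared 1 order. The median deviation of the replication genes from the hSRY-OFF mean was -0.43, -0.86 and -0.12 in hSRY-ON hearts 1, 2 and 3, and that of the mitosis genes was -0.40, -0.74 and -0.19, while the 3 hSRY-OFF hearts lay between -0.12 and 0.09. Heart 2 was the lowest of the hSRY-ON hearts for 10 of 11 replication and 26 of 31 mitosis genes, where it was the lowest for 35.4% of all tested genes. The full order, heart 2 below heart 1 below heart 3, held for 9 of 11 replication genes, 20 of 31 mitosis genes and none of the 12 interphase motors, against 19.6% of all tested genes. For Kif23, for example, the SD was 0.03 among the hSRY-OFF and 0.47 among the hSRY-ON hearts. Without heart 3 the number of members that fell was 23, with Mcm2, Mcm5, Mcm6, Cdc20 and Cdc2a among them. Without heart 2 it was 4. In these 2 fits 2965 and 2636 probes of the whole array were called in either direction, against 3567 in the main fit. Among the cell type lists the same order of the heart medians was found for the neutrophil markers, at 0.25, -0.07 and 1.83 in hSRY-ON hearts 1, 2 and 3, the fibroblast markers, at 0.12, -0.10 and 0.15, and the smooth muscle markers, at 0.48, 0.22 and 0.52. It was not found for the cardiomyocyte markers, at -0.88, -0.66 and -0.69, the endothelial markers, at -0.44, -0.23 and -0.37, or the macrophage markers, at 0.87, 1.01 and 0.86. The erythroid markers, at 0.04, -1.04 and -0.97, and the brown fat markers, at 2.10, 0.69 and 1.66, had heart 2 lowest but not the full order. The part of any of these cell types in the order was not tested.

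**Figure D4:**
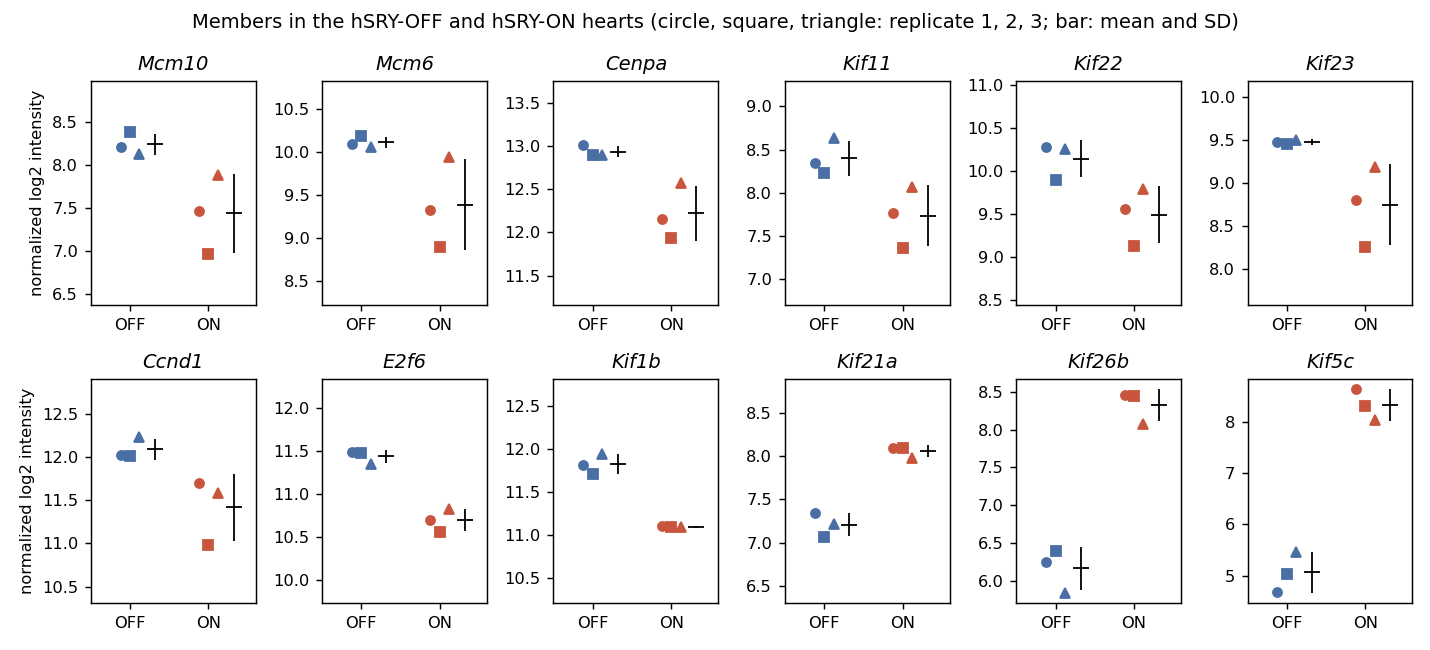
Normalized log2 intensity (vertical axis) of 12 members in each of the 3 hSRY-OFF (blue) and 3 hSRY-ON (red) hearts, with the mean and SD as bars. In the upper row of replication and mitosis genes hSRY-ON heart 2 (square) is lowest and heart 3 (triangle) nearest to the controls, while E2f6, Kif1b and Kif21a have hSRY-ON hearts close together.

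Among the genes that control the passage from G1 into S phase 2 of 14 tested genes fell and none rose, with a median of -0.19 and 9 negative changes. The 2 that fell were 14.3%, near the 13.9% of all tested genes. Ccnd1, cyclin D1, the partner of the G1 kinases, fell on all 3 of its probes. The brightest was at 12.03, 12.01 and 12.24 in hSRY-OFF hearts and 11.70, 10.98 and 11.59 in hSRY-ON hearts, a change of -0.67 (SE 0.20, adjusted p = 0.0427). The other 2 probes gave -0.76 (adjusted p = 0.0176) and -0.90 (adjusted p = 0.00782), and in none did the groups overlap. The call of the brightest probe was lost under 9 of 17 alternatives, the scalings without quantiles among them.

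The remaining D cyclins did not share this direction. Ccnd3 was at 12.01, 11.97 and 11.93 against 12.37, 12.39 and 12.21, above all controls in each hSRY-ON heart but short of the threshold (change 0.35, SE 0.11, adjusted p = 0.0559). It passed with median scaling, with the TCC factors and under 6 other settings that changed the background, the filter or the test. Ccnd2 changed by 0.37 (SE 0.21, adjusted p = 0.223) with overlap, since hSRY-OFF heart 1 was at 9.40 and the other 5 hearts between 10.03 and 10.40. Ccne1 and Ccne2, the E cyclins of S phase entry, changed by 0.02 and -0.31 without passing, and their partner Cdk2 by -0.31 (SE 0.11, adjusted p = 0.0793), with 10.69, 10.71 and 10.57 against 10.32, 10.33 and 10.40. Cdk6 was detected on 2 hSRY-ON arrays and no hSRY-OFF array and was not tested.

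Of the 7 tested E2F factors only E2f6, a repressor that lacks the activation domain of E2f1, passed. It was at 11.49, 11.47 and 11.35 in hSRY-OFF and 10.70, 10.56 and 10.82 in hSRY-ON hearts, and fell by 0.74 (SE 0.12, adjusted p = 0.00425). All 3 of its probes fell, by 0.61 to 0.74, and the call held under all 17 alternatives. The activator E2f1 was at 9.66, 9.40 and 9.54 against 9.11, 8.73 and 9.24, with no overlap (change -0.50, SE 0.16, adjusted p = 0.0546), and the activator E2f3 was at 6.33, 6.25 and 6.40 against 6.58, 6.88 and 6.70, in the other direction (change 0.39, SE 0.13, adjusted p = 0.0532). E2f2 had 8.14, 7.48 and 9.59 in the hSRY-OFF hearts and 8.12, 7.47 and 7.79 in the hSRY-ON hearts, so its change of -0.61 rested on hSRY-OFF heart 3. In that heart the erythroid markers were also high, with a median deviation of 0.76, and the part of red cells in E2f2 was not tested. E2f4, E2f5 and E2f7 changed by -0.17, -0.12 and -0.22 and did not pass.

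The interphase motors, most of which carry cargo or serve cilia and microtubules outside mitosis, went the other way from the mitotic kinesins. Kif2a and Kif2b were counted in this group, while their relative Kif2c was counted in mitosis. Of the 12 tested genes of this group 5 rose and 1 fell, with a median of 0.32, though the median over all 20 tested probes was 0.03. The 5 that rose were 41.7%, against 14.9% of all tested genes, and the 1 that fell was 8.3%, against 13.9%. Kif5c, a heavy chain of kinesin-1 best known from neurons, was detected on no hSRY-OFF array, at 4.68, 5.03 and 5.47, and on all 3 hSRY-ON arrays, at 8.64, 8.30 and 8.03. It was at least 7.44-fold higher in hSRY-ON hearts, the bright mean being set against the lowest signal of detected probes or the probe's own in the controls (adjusted p = 0.000178). It was tested only because the hSRY-ON arrays passed the filter, so its place among the members that rose was fixed by that group, and without it 4 of 11 motors rose. Its paralogue Kif5b, the kinesin-1 heavy chain of most cells, was dim, at 5.53, 5.0 and 5.04 against 5.37, 5.37 and 5.54 (change 0.24, SE 0.17, adjusted p = 0.328), and Kif5a was detected on 1 array and not tested.

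The 160 bases before the start of Kif5c (chr2:49619126-49619285, + strand) are shown beside those of the mitotic kinesins as the window of the member that rose most, and hold none of the 3 motifs. The motifs did not divide the members that rose from those that fell. Kif26b, which had the next largest rise, held a CCAAT box and a CHR before its start, and Kif1a, which rose, held a CHR in a window. Cenpi, which fell, held no CHR.
Kif5c: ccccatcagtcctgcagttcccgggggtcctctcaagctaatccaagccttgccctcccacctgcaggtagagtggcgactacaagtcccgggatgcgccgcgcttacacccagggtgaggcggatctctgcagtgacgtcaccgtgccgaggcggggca

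Kif26b, an atypical kinesin with a known part in kidney development, was at 6.25, 6.39 and 5.84 in hSRY-OFF and 8.46, 8.44 and 8.08 in hSRY-ON hearts. It rose by 2.16 (SE 0.18, adjusted p = 0.000358), or 4.48-fold, and was called in all 17 alternatives. Kif21a, which restrains microtubule growth at the cell cortex, was at 7.34, 7.07 and 7.22 against 8.10, 8.10 and 7.98, and rose by 0.85 (SE 0.12, adjusted p = 0.00246). In both the hSRY-ON hearts were close together and far from the controls, unlike in the mitotic kinesins. Kif3c, a kinesin-2 subunit, was at 7.92, 8.27 and 8.16 against 9.15, 8.91 and 8.43, and rose by 0.71 (SE 0.20, adjusted p = 0.0355), while its second probe did not pass (0.48, adjusted p = 0.109). Its family members Kif3a and Kif3b, the motors of cilia, changed by 0.40 (adjusted p = 0.171) and -0.02 (adjusted p = 0.942). Kif1a, a vesicle motor of axons, was dim, at 5.41, 5.48 and 5.24 against 5.72, 6.20 and 5.78, and its rise of 0.52 (SE 0.16, adjusted p = 0.0459) held in 3 of 15 alternatives.

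Kif1b, which carries mitochondria and synaptic vesicle precursors in 2 forms, was the only interphase motor that fell, and its probes did not share that. The brightest was at 11.81, 11.71 and 11.94 in hSRY-OFF hearts and 11.11, 11.10 and 11.09 in hSRY-ON hearts, a change of -0.72 (SE 0.12, adjusted p = 0.00386) that held under all 17 alternatives. The second brightest was at 10.77, 11.06 and 11.06 against 11.03, 11.58 and 11.11, a change of 0.28 that did not pass, and the other 4 ranged from -0.38 to 0.03 without passing. Which transcript each probe reads was not determined here. Some markers of the macrophage, smooth muscle and brown fat lists rose beside these motors and others of each of these lists had negative changes, as given above. The sums of the brown fat list overlapped, at 1787 to 2529 against 956 to 3416. The hepatocyte list had 1 tested gene, Ttr, at 17.7 to 25.5 against 112 to 186, which was tested only through the hSRY-ON arrays. The part of any of these lists in the rise of the motors was not tested.

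Among 18 tested kinases and regulators outside the cycle itself, 2 fell and 1 rose, with a median of -0.12. These were 11.1% and 5.6%, where 13.9% and 14.9% of all tested genes fell and rose. Cdk8, the kinase of the Mediator complex that tunes transcription, was at 9.14, 9.06 and 9.40 in hSRY-OFF and 10.19, 10.35 and 10.06 in hSRY-ON hearts, and rose by 1.0 (SE 0.14, adjusted p = 0.00232), or 2.0-fold. Cdk9, the kinase that releases paused RNA polymerase, changed by 0.39 (SE 0.14, adjusted p = 0.0817) with all hSRY-ON hearts above the controls. Cdk5rap1, a tRNA-modifying enzyme of mitochondria despite its name, was at 8.57, 8.64 and 8.34 against 7.61, 7.73 and 7.78, and fell by 0.81 (SE 0.13, adjusted p = 0.00361). All 3 of its probes fell, by 0.59 to 1.08, and the calls of Cdk8 and Cdk5rap1 held under all 17 alternatives. The SD among the hSRY-ON hearts was 0.15 for Cdk8 and 0.09 for Cdk5rap1.

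Cdca7, a Myc and E2F target that works in DNA methylation, behaved like the replication genes, at 9.71, 9.29 and 9.60 against 8.83, 8.44 and 9.10, with heart 2 lowest, and fell by 0.75 (SE 0.20, adjusted p = 0.0267). The stress-responsive kinase genes Plk2 and Plk3 changed by 0.22 (adjusted p = 0.462) and -0.33 (adjusted p = 0.221), with overlap. Of the 5 tested further genes, Cdc34, the ubiquitin-conjugating enzyme that works with the SCF ligase, among other things on inhibitors of cyclin-dependent kinases, was at 8.11, 7.98 and 7.98 against 7.58, 7.02 and 7.59 and fell by 0.63 (SE 0.18, adjusted p = 0.0334). Cdc37l1, related to the Hsp90 co-chaperone Cdc37, was at 10.61, 10.48 and 10.52 against 10.85, 11.43 and 10.97 and rose by 0.55 (SE 0.17, adjusted p = 0.0453), on 1 of its 4 tested probes.

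Proliferation genes outside these families, such as condensins, kinetochore and nucleotide synthesis genes, mostly had negative changes too, and most were lowest in hSRY-ON heart 2. Of 62 such genes on the array 43 were tested, 6 fell and none rose, so that 14.0% fell against 13.9% of all tested genes, with a median of -0.41 and 37 negative changes. At an unadjusted p under 0.05, limma gave 16 lower and none higher, beside 19.9% and 21.5% of all tested genes. The largest fall was in Uhrf1, which keeps DNA methylation through replication, at 9.18, 9.28 and 8.58 against 8.12, 7.47 and 8.53 (change -0.98, SE 0.29, adjusted p = 0.0439). Top2a, the topoisomerase of chromosome condensation, changed by -0.41 (SE 0.19, adjusted p = 0.158), Rrm2, the ribonucleotide reductase subunit of S phase, by -0.80 (SE 0.30, adjusted p = 0.0824), and Pcna, the replication clamp, by -0.38 on a dim probe (SE 0.25, adjusted p = 0.306), none of which passed. Their median deviations in hSRY-ON hearts 1, 2 and 3 were -0.38, -0.76 and -0.13, close to those of the replication and mitosis members, and the order of the hSRY-ON hearts held for 34 of the 43 genes. Mki67 was not analysed here.

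The 32 members that were not tested include several central mitosis genes. Of these 32 genes, 26 were detected on no array, and 16 belong to mitosis, 8 to the interphase motors, 3 each to the other kinases and the further genes, and 1 each to replication and G1/S control. The mitosis genes detected on no array include Ccna2, Ccnb2, Bub1, Cenpe, Kif14, Kif18a and Cdca1, now Nuf2, and Plk4 was detected on 1 hSRY-OFF array. A probe that is not above background gives no level for its gene, so these genes neither add to nor take from the counts above.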

How the data were processed

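Total RNA of 6 hearts was hybridized to MouseRef-8 v2.0 BeadChip arrays, and the authors deposited, per probe and heart, a mean bead intensity that was neither normalized nor background-corrected. The deposited detection p-value of each probe compares it with negative-control beads of the same array. The study's methods name TCC and the submitters' processing notes name limma, neither with settings. Here the intensities were background-corrected, quantile normalized and taken to log2 by neqc (limma 3.58.1 in R 4.3.3, offset 16). Probes with a detection p under 0.05 on 3 or more of the 6 arrays were kept for testing. Between 47.2% and 51.3% of probes were detected on each array, the mean intensity ran from 631 to 939, lowest on hSRY-OFF array 3 and highest on hSRY-OFF array 2, and the number of arrays limits the precision. lmFit and eBayes were run with group as the only term, with two-sided p-values adjusted by Benjamini-Hochberg over all tested probes. With 3 hearts against 3, an exact permutation test of a single value could not go below p = 0.1, so none is given. The steps were tested on simulated data.

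Members and lists were chosen with earlier results of these data known, so list counts and medians are descriptions. Named were all called members, the largest changes in each group, the called outside gene with the largest change and fixed key genes, each by its brightest tested probe. Bub3, Cdca3, Cdc7, Cdc45l, Cdc16, Cdc27, Cenpt, Kif3a, Kif3b, Kif4, Kif5a, Cdk9 and the untested genes were added after their values were seen. Array symbols were updated through the RefSeq gene table. Promoter windows came from RefSeq (GRCm38.p6). Alternatives covered background correction, scaling, probe filter, test, replicate block and leaving out each heart. Motif searches and plots used Python 3.11.15 with pandas 2.3.3 and matplotlib 3.10.9.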

Additional observations from a re-analysis of the deposited data

How the results depend on the processing

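The median changes of the replication and mitosis genes were negative under all 18 alternatives to the main setting and moved by less than the spread between hearts, from -0.65 to -0.26 and from -0.58 to -0.24. The number of members that fell, 13, became 20 without background correction and with an intensity trend, 8 without normalization, 5 with median scaling, 7 with TCC-like factors, 5 without the probe filter, 25 with array weights, and 3 to 23 when 1 heart was left out. The number that rose, 8, became 3 without normalization, 5 without the probe filter, 13 with array weights and 4 to 6 when 1 heart was left out. Over the whole array the probes called in either direction, 3567, became 3961 without background correction, 4007 with an intensity trend and 1897 without normalization. They became 3192 without the probe filter, 4976 with array weights and 2206 to 3669 when 1 heart was left out. The median of the G1/S genes, -0.19, became -0.29 over all probes, -0.10 without background correction, -0.28 without normalization, -0.069 with median scaling, -0.10 with TCC-like factors, and -0.23 to -0.039 with 1 heart left out. The median of the interphase motors, 0.32, became 0.033 over all probes, 0.11 without background correction, 0.19 with an offset of 50, 0.20 without normalization, 0.41 with median scaling, 0.38 with TCC-like factors, 0.077 without the filter, 0.21 with detection on all arrays, 0.40 at a detection p of 0.01, 0.28 with array weights, and 0.074 to 0.32 with 1 heart left out. Fewer probes pass the stricter filters and fewer hearts enter the fits that leave 1 out. The cause of the other shifts was not tested.

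The replicate numbers did not pair the hearts, since deviations of same-numbered hearts correlated at -0.02, 0.04 and -0.07 over all tested probes. With the replicate number as a block, 9 members fell and 5 rose, and 14 of the 21 calls were kept, where 2842 probes of the whole array were called. The calls of Kif1b, E2f6, Cdk8, Cdk5rap1 and Kif26b held under all 17 alternatives that refit the test, and those of Kif1a and Cdc6 held in 3 of 15. No named gene changed sign while called. With 3 arrays in a group, changes of dim probes such as Cdc6, Kif1a and Kif5b are the least precise.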
